A study of Mytilus galloprovincialis with 16 samples.

Results

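Mantles of spawning female mussels were set directly against mantles of females at the start of gonad development on 4 dual-color cDNA arrays, of 16 in the whole series. Each held mantle RNA of a female Mediterranean mussel (Mytilus galloprovincialis) at stage 4, spawning, sampled in March, together with mantle RNA of a female at stage 1, the early gonad, sampled in the November before. They were chosen by their titles, and no value of the remaining arrays is reported. Each RNA came from the mantle of 1 wild mussel of the same lagoon. Stage 4 RNA was labeled with Cy5 on replicates 1 and 4 and with Cy3 on replicates 2 and 3, with stage 1 RNA in the other dye. Each stage was sampled in 1 month, so month and gonad stage cannot be told apart. The labels do not say whether an animal appears on more than 1 array, so every p-value measures the spread between these 4 arrays.

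In Mytilus the gonad has no body of its own: follicles of germ cells spread through the connective tissue of the mantle, fill it as gametes ripen and empty it at spawning. Mantle RNA therefore comes from germ cells, storage and connective tissue, muscle, and the epithelia that build the shell. In such bulk samples, fewer cells of a type and less RNA per cell cannot be told apart. Chitinases, the enzymes that run through the results below, cut chitin, the long sugar polymer found in arthropod cuticle, in some diatoms and in the organic matrix of mollusk shells.

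Each array carried 1920 cDNA clones in 2 spots each. The value of a clone on an array is the log2 ratio of stage 4 over stage 1 after background correction and loess, averaged over its 2 spots, so that a value above 0 means more at stage 4. A clone was called when the Benjamini-Hochberg adjusted p of the limma fit over all 1920 clones was under 0.05 and its log odds B were above 0. As a limit of detection, the signal exceeded by 5% of the empty spots was used, and between 79.5% and 88.3% of the probe spots passed it in the stage 4 channels, against 44.5% to 78.2% in the stage 1 channels, with the lowest share of both stages on replicate 1. All 42 called clones were above that limit in both channels of all 4 arrays. Before normalization, the brightest 25% of the probe spots leaned to stage 4 on every array, with median log2 ratios of 1.92, 0.48, 0.47 and 1.01 on replicates 1 to 4, whichever dye stage 4 carried. Loess removes such a lean and median centring keeps it. Since called clones were bright (median signal percentile 95.2 for those called higher and 90.3 for those called lower), the direction and the calls of bright clones depend on which is used. Across the 1920 clones, Pearson correlations between arrays were 0.541 and 0.693 for pairs with the same dye orientation and 0.398 to 0.517 for pairs with opposite orientations. These describe arrays that share probes and may share animals.

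Of 1920 clones, 42 were called (2.19%): 9 were higher at stage 4 (0.469%) and 33 lower (1.72%). After loess the falls were also larger than the rises. They spanned log2 ratios of -3.95 to -0.93, with 23 of 33 at -2 or below and 10 at -3 or below, whereas the rises spanned 0.77 to 1.65. Each of the 42 had the same sign on all 4 arrays, as did 264 clones that were higher and 432 that were lower among all 1920. With median centring the split turned to 86 higher and 19 lower: 9 of the 9 rises were still called, and 16 of the 33 falls. The 9 rises then had log2 ratios of 1.95 to 2.81 and the 33 falls -2.62 to 0.31, so the falls were no longer the larger changes. Scaling between arrays gave 18 higher and 32 lower, and plain background subtraction 2 and 40. Which calls held depended on the setting: with plain subtraction 1 of the 9 rises and 31 of the 33 falls were still called, and with print-tip loess 1 and 30. An unadjusted p under 0.05 was reached by 190 clones higher and 231 lower. The study's table of changed genes could be paired with 368 clones, 354 of them with a public identifier, all chosen by the study as changing during female gonad development, partly on these very arrays. Among those 368, 3 were called higher (0.815%) and 31 lower (8.42%), and counts over named genes should be read against these shares.

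**Figure D1:**
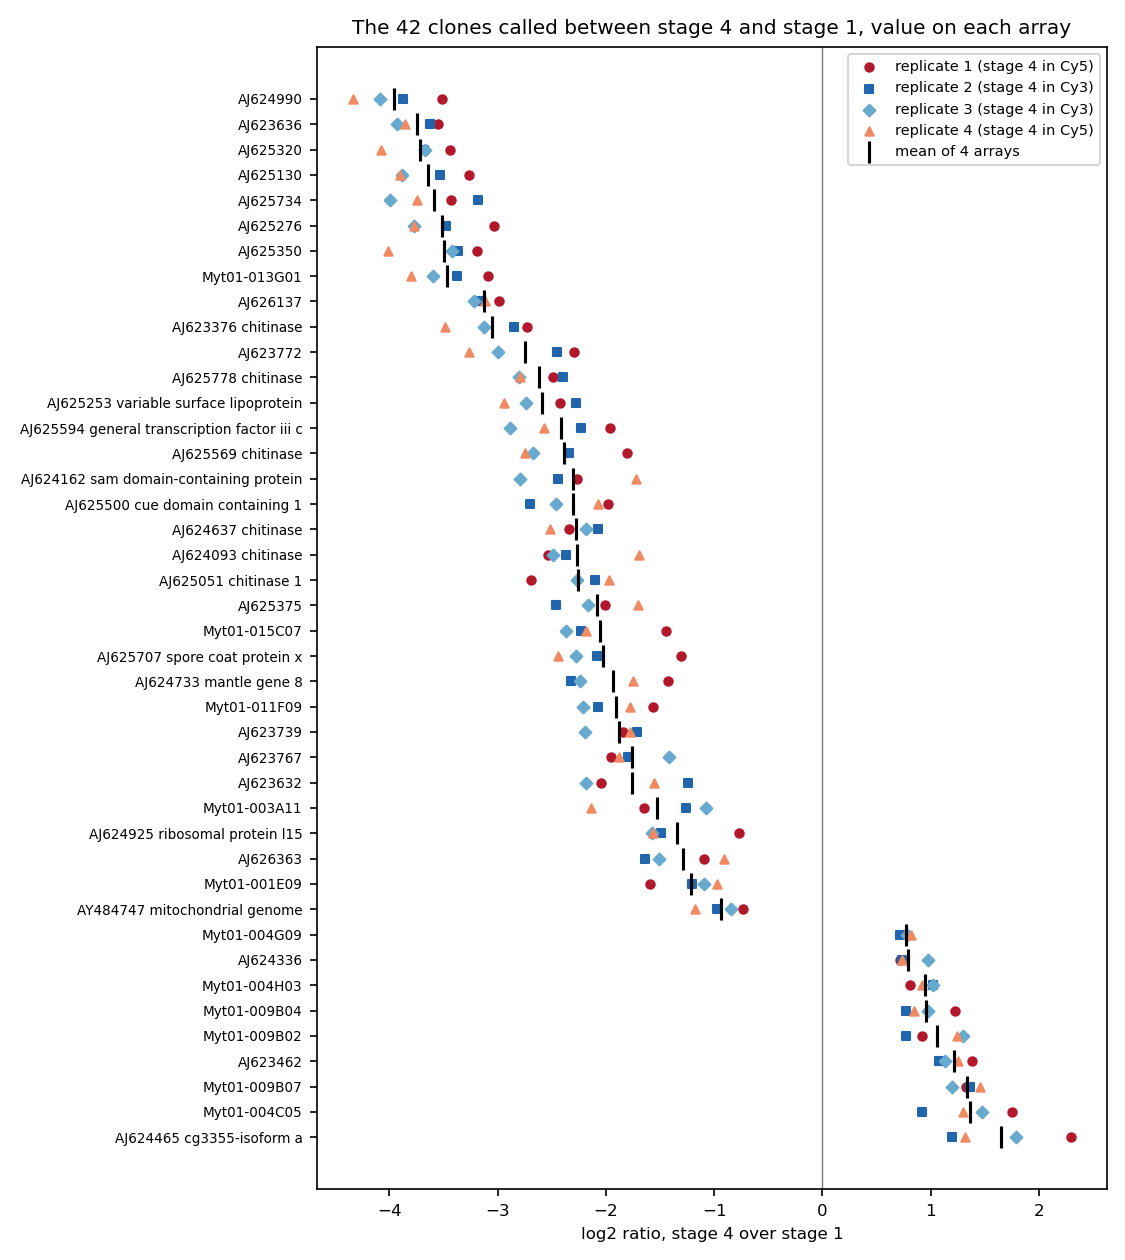
Log2 ratio of stage 4 over stage 1 (horizontal axis) of the 42 called clones, lowest mean at the top. Each symbol is 1 array, colored by replicate and dye orientation, and the black bar is the mean of 4 arrays. The 33 falls reach -3.95 and the 9 rises reach 1.65, and no clone has arrays on both sides of 0.

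The identified chitinases fell together. All 6 identified chitinase clones were called lower at stage 4, with log2 ratios of -3.05 to -2.26, that is 8.27-fold to 4.78-fold lower. The list held 7 chitinase identifiers, and only those in the study's table of changed genes could be paired with a clone. A chitinase that the study did not find changed could therefore not appear here. The median over the 6 clones was -2.51, -2.35, -2.58 and -2.63 on replicates 1 to 4, a mean of -2.52 ± 0.12 (SD, n = 4 arrays), while the median over all 1920 clones was -0.04 ± 0.03. AJ623376 had the largest difference, with log2 ratios of -2.73, -2.85, -3.12 and -3.49 on replicates 1 to 4 (mean -3.05, SE 0.16, limma adjusted p = 0.000871). AJ625778 read -2.49, -2.39, -2.80 and -2.79 (mean -2.62, SE 0.12, adjusted p = 0.000647). The remaining clones, AJ625569, AJ624637, AJ624093 and AJ625051, had means of -2.39, -2.28, -2.27 and -2.26, with SDs over the arrays of 0.43, 0.19, 0.39 and 0.31. These 4 means differ by less than the spread between arrays. The clones share a description and may share sequence, so a transcript of 1 chitinase gene could hybridize to several of them, and they are not 6 independent measurements.

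The signals themselves show how far the normalization enters. AJ623376 gave 381, 131, 133 and 349.5 scanner units over local background at stage 4 on replicates 1 to 4, against 462, 888.5, 1127.5 and 1308.5 at stage 1. AJ624637 gave 366, 193, 137.5 and 353 units at stage 4, against 343.5, 676.5, 582 and 733.5 at stage 1. On replicates 2, 3 and 4 every chitinase clone was dimmer at stage 4 before any normalization. On replicate 1, where the lean of bright spots toward stage 4 was largest, AJ625051 gave 158.5 units at stage 4 against 285 at stage 1, and the channels of the other clones were closer to each other. AJ624637 was slightly brighter at stage 4 there, so both the sign and the size of its ratio on that array depend on the normalization. With median centring the 6 log2 ratios were still all negative, from -1.77 to -1.06, but only AJ625051 was called, and the median over the list was -1.44. All 6 were called without any 1 of the 4 replicates.

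**Figure D2:**
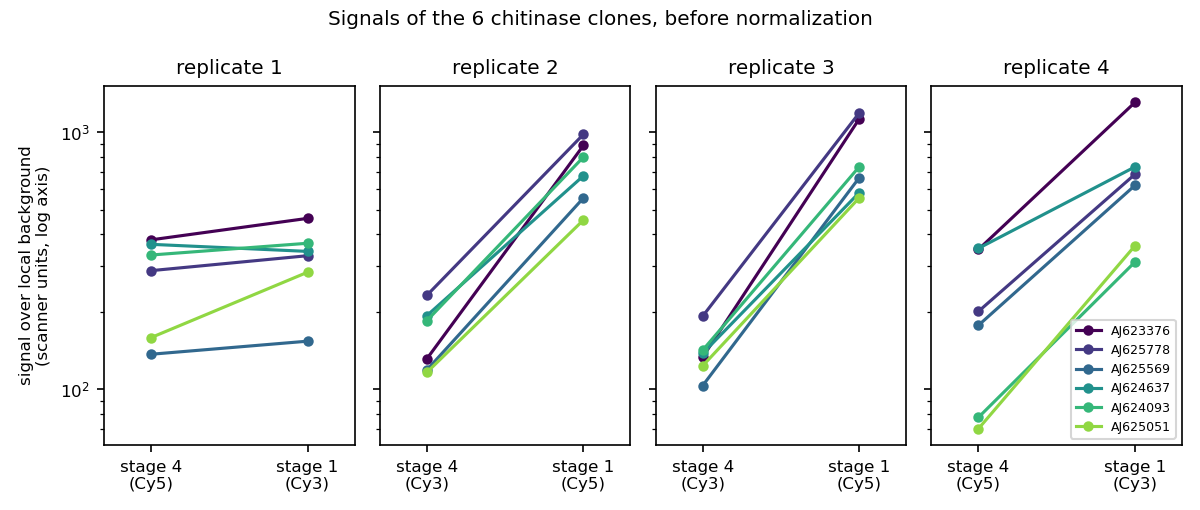
Signal over local background in scanner units (log axis) of the 6 chitinase clones on each array, with the stage 4 channel left of the stage 1 channel and the dye given under each. Lines join the channels of a clone. On replicates 2 to 4 every line runs up toward stage 1, as for AJ623376 with 131 against 888.5 units on replicate 2, and on replicate 1 the lines are flatter, with AJ625051 the steepest at 158.5 against 285 units.

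The clones that fell furthest carried no description. AJ624990 had log2 ratios of -3.52, -3.88, -4.09 and -4.34 on replicates 1 to 4 (mean -3.95, SE 0.16, 15.5-fold lower, adjusted p = 0.000607). Its signals were 455, 173, 174.5 and 385 units at stage 4, against 943.5, 2256.5, 2795.5 and 2298 at stage 1, so the brightest stage 4 value was below the dimmest stage 1 value. AJ623636, annotated only with nucleic acid and zinc ion binding, read -3.55, -3.63, -3.93 and -3.85 (mean -3.74, SE 0.11, adjusted p = 0.000424). AJ625276 carried annotation terms for chitin binding, chitin metabolic process and inhibition of serine proteases. Its log2 ratios were -3.03, -3.48, -3.77 and -3.78 (mean -3.51, adjusted p = 0.000647), on each array below the lowest chitinase clone. AJ625734, annotated with development and intracellular signaling, averaged -3.59. AJ625320, AJ625130 and AJ625350 averaged -3.72, -3.64 and -3.50. Myt01-013G01, a clone with no public identifier, averaged -3.46. With median centring AJ625276 was not called, at -2.27, while the other clones of this paragraph were, with AJ624990 at -2.62. Of the 33 falls, 14 had a description and 19 had none, and the undescribed falls not named so far lay between -3.12, for AJ626137, and -1.21.

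Described clones outside the chitinases fell by less than these. A clone described as a variable surface lipoprotein (AJ625253) averaged -2.59, a general transcription factor IIIC subunit (AJ625594), part of the machinery by which RNA polymerase III makes small RNAs, -2.41, a SAM domain protein (AJ624162) -2.30, a CUE domain protein (AJ625500) -2.30 and a clone described as spore coat protein (AJ625707) -2.03. Descriptions drawn from bacteria name only the nearest sequence found by the study, not a role in mussels. Mantle gene 8 (AJ624733), taken as a marker of mantle tissue, was called lower as well, with log2 ratios of -1.42, -2.33, -2.24 and -1.75 (mean -1.93, SE 0.19, adjusted p = 0.0083). It was 3.82-fold lower, and on replicate 1 its signal before normalization was the higher at stage 4, with 198.5 units against 138 units at stage 1. With median centring AJ625500 and AJ625707 were still called, whereas AJ625253 (-1.44), AJ625594 (-1.34), AJ624162 (-1.43) and mantle gene 8 (-1.03) were not. A further pair of called clones lay near or above 0 with it. Ribosomal protein L15 (AJ624925) averaged -1.35 after loess and -0.03 with median centring, and 1 clone of the mitochondrial genome (Myt01-019B03) averaged -0.93 after loess and 0.31 with median centring.

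The falls overlapped with a group of genes that the study had clustered in another tissue. In female digestive glands followed over a year, its clusters 1 and 4, which the study joined into 1 group, hold 45 identifiers in the table used here, which may not be the whole group, and 44 of these could be matched to a clone. This look-up was made after the values were seen, and no test was run on it. Of the 44 clones, 25 were called lower, 0 were called higher, and 40 were below 0 on all 4 arrays. Their median was -1.82, against -0.02 for all 368 paired clones. With median centring 16 were called lower and the median was -1.24. The 6 chitinases are among them, and without them 19 of 38 were called lower, with a median of -1.39. The members not called included precollagen-D (AJ625760), a byssus thread protein, at -1.44 (adjusted p = 0.032, B not above 0), and heat shock protein 90 (AJ625621), a chaperone, at -0.86 (adjusted p = 0.0278, B not above 0), or 0.15 with median centring. Put the other way, 25 of the 28 called falls with a public identifier belonged to these clusters, against 44 of all 354 paired clones with an identifier. All of those 354 were chosen by the study as changing during female gonad development, partly on these arrays. The list of secreted digestive enzymes, kept as a marker of the digestive gland, had members on both sides of 0. Of its 4 clones, 1 was called higher and 0 lower, with array medians averaging 0.00 ± 0.22 (SD, n = 4 arrays) and a list median of 0.92 with median centring. The rise is AJ624465, described with the rises. Alpha-amylase (AJ624381), which cuts starch, averaged 0.33, endo-beta-glucanase (AJ623374) -0.33 and a trypsin-like enzyme (AJ624548) -1.79, with -2.65, -0.85, -0.62 and -3.03 on replicates 1 to 4 (adjusted p = 0.127). With a dye term in the fit the trypsin-like enzyme was called lower (adjusted p = 0.0058). A part of digestive gland RNA in the falls was not tested.

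Only 1 of the 9 rises had a description. AJ624465, described by its similarity to the Drosophila gene cg3355 and annotated as a trypsin-type serine protease, had log2 ratios of 2.30, 1.20, 1.79 and 1.32 on replicates 1 to 4 (mean 1.65, SE 0.21, 3.14-fold higher, limma adjusted p = 0.0241). Its signals were 5116, 1455.5, 1875.5 and 1582 units at stage 4, against 170.5, 398, 354.5 and 165 at stage 1, so it was brighter at stage 4 on every array before normalization too. It lost its call without any 1 of the 4 replicates, with adjusted p between 0.043 and 0.149 (B not above 0 where it was under 0.05), while the AJ624465 log2 ratio stayed between 1.43 and 1.80. The rises with an identifier but no description were AJ623462 (1.38, 1.07, 1.14 and 1.26, mean 1.21, adjusted p = 0.0053) and AJ624336 (0.72, 0.73, 0.97 and 0.74, mean 0.79, adjusted p = 0.0241). The other 6 are known only by clone ID, led by Myt01-004C05 with a mean of 1.36 and Myt01-009B07 with 1.32, 1.36, 1.19 and 1.45 (mean 1.33, adjusted p = 0.0032), and followed by means from 1.06 (Myt01-009B02) to 0.77 (Myt01-004G09). Myt01-009B07 was called without any 1 of the replicates. With median centring all 9 rises were called, at log2 ratios of 1.95 to 2.81. By their clone IDs, 8 of the 9 rises lay on clone plates 4 and 9, which hold 96 clones each of 20 plates, while plates 13 and 15 held 11 of the 33 falls. The spots of the rises lay in 5 printed blocks. The largest mean of all 1920 clones, 1.83 for a cysteine rich protein 61 (AJ624499), a matricellular protein in vertebrates, was not called (3.16, 0.98, 1.77 and 1.42, adjusted p = 0.0742), but it was called with median centring, at 2.83.

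Genes of the eggs and of the sperm tail gave no called clone. A vitelline envelope protein with a zona pellucida domain (AJ625872), of the family that builds the coat around the egg, had log2 ratios of -2.31, -1.25, -0.71 and -2.25 on replicates 1 to 4 (mean -1.63, SE 0.31, adjusted p = 0.0641). A member of the same family (AJ625914) averaged 0.09 with values of -0.05, -0.03, 0.41 and 0.05. A clone similar to pan-1 (AJ623653), named for P granules, the germ granules of Caenorhabditis elegans, read -3.18, -0.75, -1.11 and -3.19 (mean -2.06, SE 0.51, adjusted p = 0.113). The members of this female germ line list thus ranged from -2.06 to 0.09, and the 2 that were below 0 on every array varied by more than 1 on the log2 scale between arrays. The array medians of the sperm and axoneme list averaged 0.26 ± 0.04 (SD, n = 4 arrays), with 0 of 4 called: an axonemal dynein chain (AJ625992), a motor of cilia and sperm tails, averaged 0.61, a radial spoke head protein (AJ624749) 0.34, a testis haploid expressed gene (AJ625516) 0.19 and a dynein light chain (AJ516886) -0.29. All 4 were above the empty spots at stage 4 on 4 arrays. At stage 1 AJ516886 was above them on 4 arrays, but AJ625992, AJ624749 and AJ625516 on only 3. The ratios of these dim clones are therefore less certain. Dynein and radial spoke genes serve ciliated cells as well as sperm.

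The difference between the replicates of AJ623653 followed the dye orientation, and it was shared by other clones. In 27 clones the mean of replicates 1 and 4, with stage 4 in Cy5, was lower than the mean of replicates 2 and 3, with stage 4 in Cy3, by over 2 on the log2 scale, and in 0 clones it was higher by as much. A p63 and p73-like protein (AJ625243), of the p53 family of transcription factors, read -3.28 and -3.95 on replicates 1 and 4, and -0.03 and -0.32 on replicates 2 and 3. Ribosomal protein L23a (AJ626199) read -2.71 and -4.36, and -0.27 and -0.37. These clones were low on replicates 1 and 4 and near 0 on replicates 2 and 3, without overlap. A coefficient for the dye was called in 6 of 1920 clones, all brighter in Cy3, and in 0 of the 42 clones called for stage. With so few among all clones, 0 of 42 is near the overall share and shows nothing particular to the called clones. With the dye term in the fit, 4 clones were called higher and 51 lower, 22 of the falls being new, and AJ625872 (adjusted p = 0.0088), AJ623653 (adjusted p = 0.0038) and AJ625243 (adjusted p = 0.0088) were called lower. Replicates with the same orientation may also share animals, and the dye and the animal cannot be told apart here. Among the called clones the means of the 2 orientations differed by at most 0.73: the chitinase AJ623376 averaged -3.11 with stage 4 in Cy5 and -2.98 with stage 4 in Cy3. The calls came from a fit without a dye term, in which a wide gap between orientations enlarges the error and hinders a call. Agreement of the orientations among called clones was therefore partly set by the selection.

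**Figure D3:**
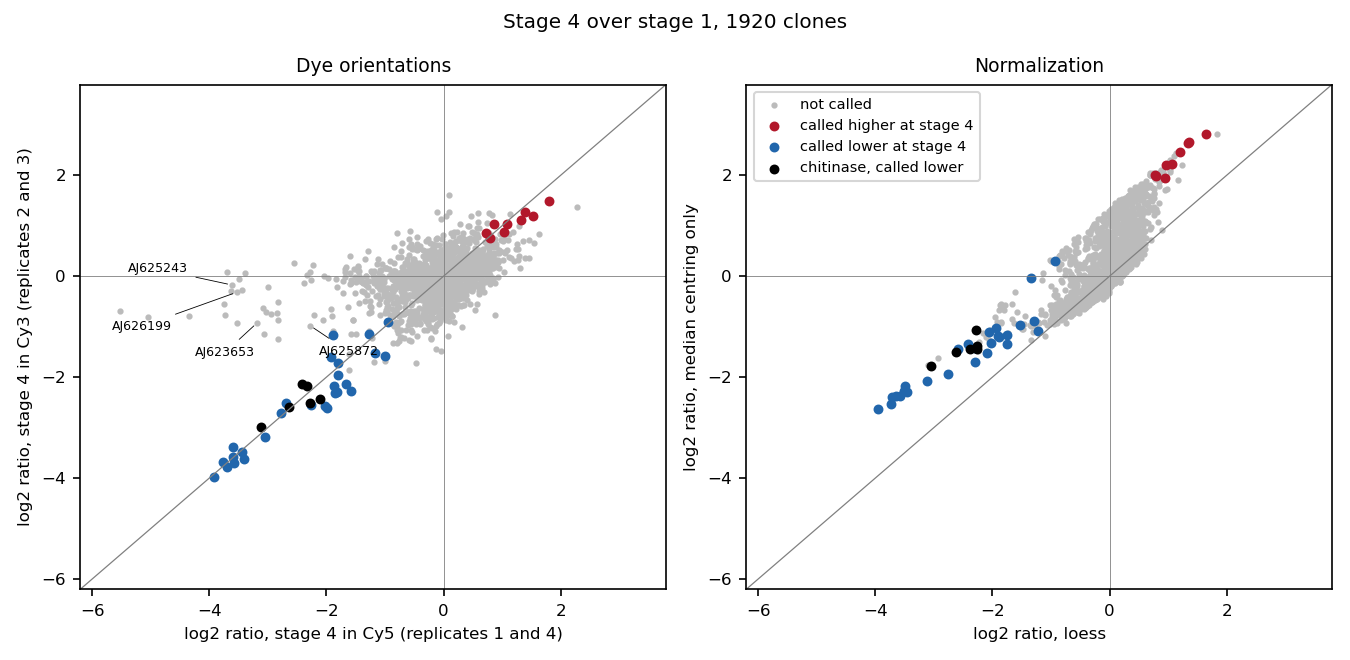
Left, mean log2 ratio of stage 4 over stage 1 of each clone on the 2 arrays with stage 4 in Cy5 (horizontal) and on the 2 with stage 4 in Cy3 (vertical). Right, log2 ratio after loess (horizontal) and with median centring only (vertical). Lines mark equality, and colors mark called clones. At left the called clones lie near the line, while uncalled clones such as AJ625243 lie far to its left. The calling rule favors this, since without a dye term a gap between orientations counts as error. At right the 9 rises reach 1.95 to 2.81 with median centring, and 1 called fall crosses 0.

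The protein-making machinery gave 1 call. Of 43 cytosolic ribosomal protein clones, 0 were called higher and 1 lower, L15, and at an unadjusted p under 0.05 they were 6 and 18. Their medians on replicates 1 to 4 were -0.10, -0.51, -0.39 and -0.17, a mean of -0.29 ± 0.19 (SD, n = 4 arrays), and with median centring the list median was 0.68 instead of -0.32. The members ran from L23a at -1.93 and the S27-like protein (AJ626374) at -1.61 to L18a (AJ624844) at 0.50 and L7a (AJ624649) at 0.63. Of the translation factors 0 of 11 were called, or 4 higher with median centring, and the list median was 0.34, 0.40, 0.44 and 0.52 on replicates 1 to 4 (mean 0.43 ± 0.07). Clones described as translation elongation factor 1 alpha, which carries aminoacyl-tRNA to the ribosome, stood at both ends. AJ624922 averaged 0.68 (0.79, 0.65, 0.89 and 0.40, adjusted p = 0.0559) and AJ625505 0.62, whereas AJ625361 averaged -0.62. AJ625361 was also annotated with chitin binding and chitin metabolic process, and it belongs to digestive gland clusters 1 and 4 described above. Its signal percentile was 56.7, against 98.1 for AJ624922 and 96.6 for AJ625505. AJ624922 was also among the genes for which the study designed Q-PCR assays. The study reported its Q-PCR values in female digestive gland, not in mantle. Its oligonucleotides are shown, with no letters marked, because they are what the study measured this transcript with. They were matched to no clone sequence:
elongation factor 1 alpha (AJ624922), TaqMan probe: acaaactgtcgccgtaggagtcatcaaa
elongation factor 1 alpha (AJ624922), sense primer: cgttttgctgtccgagacatg
elongation factor 1 alpha (AJ624922), antisense primer: ccacgcctcacatcatttcttg

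Genes of the mitochondrion, encoded there or in the nucleus, gave 1 call among 28 clones. Of the 19 mitochondrially encoded clones, 15 of them from 1 mitochondrial genome entry, 0 were called higher and 1 lower. Their list median was 0.17, 0.15, 0.19 and -0.25 on replicates 1 to 4 (mean 0.06 ± 0.21), and 1.24 with median centring. Cytochrome oxidase subunit I (AJ623880) was the lowest at -0.995, with -1.83 and -2.61 on replicates 1 and 4 and 0.27 and 0.19 on replicates 2 and 3. The highest, Myt01-019B01, averaged 0.62. NADH dehydrogenase subunit 5 (AJ623584), of complex I, read -2.21, 0.21, 0.95 and 0.50 (mean -0.13, SE 0.55, adjusted p = 0.884), so replicate 1 lay apart from the rest. It too had a Q-PCR assay, reported by the study in female mantle, with these oligonucleotides:
NADH dehydrogenase subunit 5 (AJ623584), TaqMan probe: acccttgtcacagtcttcttaacccacg
NADH dehydrogenase subunit 5 (AJ623584), sense primer: cttattgcacctattcttaccggc
NADH dehydrogenase subunit 5 (AJ623584), antisense primer: ttcgtctgtaaactgtccaacaaa

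Nuclear genes of the respiratory chain and ATP synthase stayed near 0 after loess, with 0 of 6 called and a list median of 0.22, or 0.85 with median centring. ATP synthase beta subunit clones averaged 0.07 (AJ624752) and 0.21 (AJ625661), the alpha subunit (AJ625646) 0.22, cytochrome c (AJ624894) 0.35, cytochrome c oxidase subunit IV (AJ624079) 0.46 and a complex I subunit (AJ516388) -0.44. The carriers and a transhydrogenase of the inner membrane were higher on all 4 arrays without reaching a call. The adenylate translocator (AJ624842), which exchanges ATP for ADP, read 0.65, 0.63, 0.53 and 1.03 (mean 0.71, adjusted p = 0.0528), and the phosphate carrier (AJ624083) averaged 0.60. Nicotinamide nucleotide transhydrogenase (AJ624576), an enzyme and not a carrier, averaged 0.33. It was dim, with a signal percentile of 30.4, and at stage 1 it was above the empty spots on only 2 of 4 arrays.

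The 6 clones described as the developmentally regulated vdg3 lay above 0 on average but held no call. Their median was 1.07, 0.24, 0.51 and 1.04 on replicates 1 to 4 (mean 0.72 ± 0.41, SD, n = 4 arrays), 5 of 6 were above 0 on all 4 arrays and had an unadjusted p under 0.05, and 0 were called. AJ625851 averaged 1.03, AJ625981 0.89, with an adjusted p of 0.0337 and B not above 0, AJ625949 0.79, AJ624482 0.74, AJ624337 0.61 and AJ623429 0.36. The list median was 2.03 with median centring, and 0 of 6 were called there as well. These clones carry 1 description and may measure 1 transcript.

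**Figure D4:**
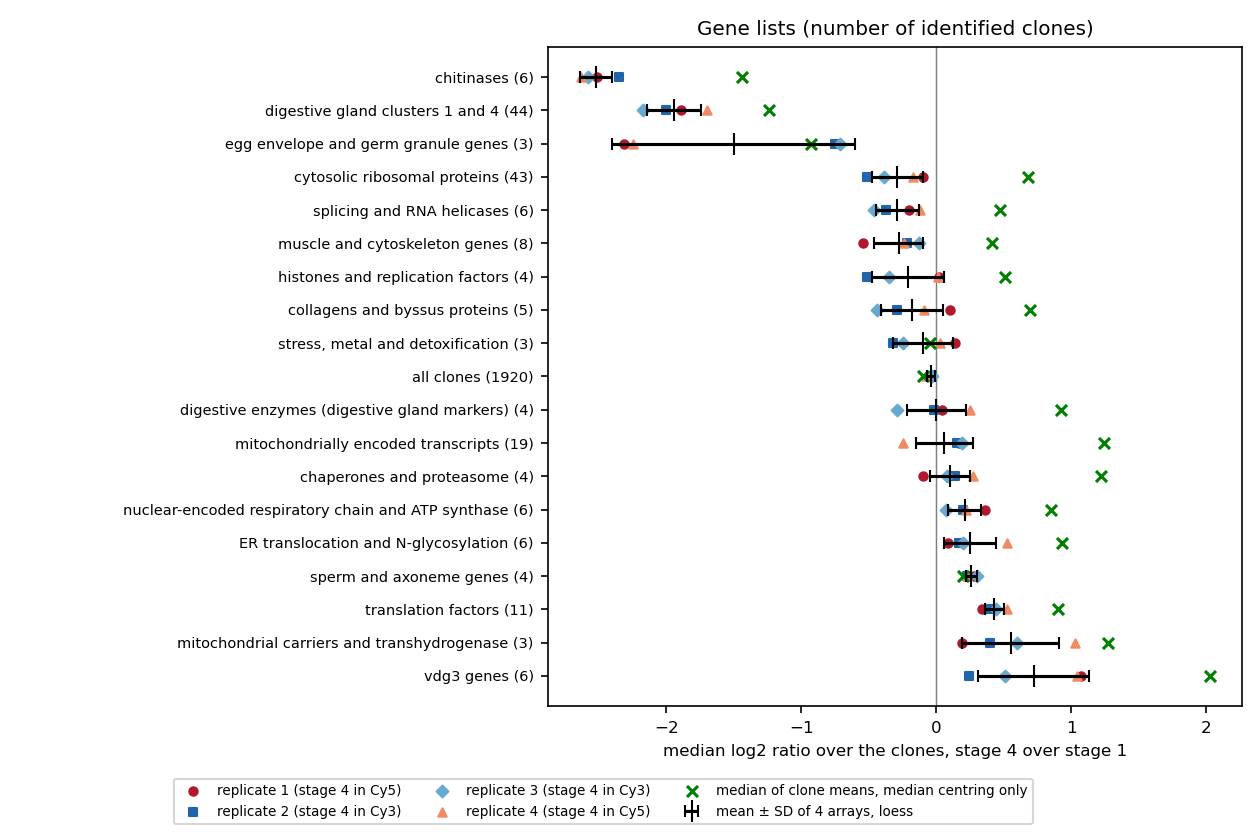
Median log2 ratio of stage 4 over stage 1 over the clones of each gene list (horizontal axis), with the number of identified clones in brackets. Symbols are the 4 arrays, black bars their mean ± SD, and green crosses the median with median centring only. The chitinases lie at -2.52 ± 0.12 with all arrays together, the egg envelope list is split, with medians of -2.31 and -2.25 on replicates 1 and 4, and the mitochondrially encoded list moves to 1.24 with median centring.

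The other lists held no called clone after loess. In the muscle and cytoskeleton list, 0 of 8 were called and the array medians averaged -0.28 ± 0.18, while the list median was 0.41 with median centring. A clone described as kyphoscoliosis isoform (AJ625425) was lowest at -0.91, followed by a heavy polypeptide 1 (AJ625475) at -0.70, with beta tubulin (AJ516796) at 0.13 and actin (AJ625071) at 0.18. AJ625475 was annotated with microtubule motor activity but was not in the sperm and axoneme list. It read -1.09, -0.18, -0.03 and -1.51 on replicates 1 to 4, lower on the arrays with stage 4 in Cy5. Collagens and byssus proteins had 0 of 5 called: precollagen-D is given above, a collagen alpha-1 chain (AJ626467) averaged -0.25, precollagen-P (AJ623789) -0.24, foot protein 6 (AJ626112) 0.25 and an alpha 1 chain (AJ625457) 0.31. The list median of -0.24 turned to 0.69 with median centring. Chromatin and replication genes gave 0 of 4 and a list median of -0.21, or 0.51 with median centring, with the replicative helicase subunit MCM5 (AJ516412) at -0.68, histone H2A.Z (AJ516582) at -0.44, a clone described as DNA ligase I (AJ624686) at 0.02 and histone H3.3 (AJ516600) at 0.38. AJ624686 was annotated with nucleosome assembly and DNA binding and with no ligase term, so its identity is uncertain. Among chaperones and proteasome subunits, 0 of 4 were called, or 2 higher with median centring. The HSP90 clones averaged -0.86 (AJ625621) and 0.06 (AJ625915), HSP70 (AJ624615) stood at 0.41 and a proteasome beta subunit (AJ516664) at 0.20.

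Genes of protein export and glycosylation in the endoplasmic reticulum had array medians averaging 0.25 ± 0.19 with 0 of 6 called, from keratinocyte associated protein (AJ516541) at -0.17 over the oligosaccharyltransferase subunits defender against cell death 1 (AJ625979) at 0.15 and ribophorin II (AJ624478) at 0.29, an isoform of cg14998 (AJ626292) at 0.25 and the translocon proteins SEC63 (AJ626414) at 0.29 and SEC61 (AJ624847) at 0.44. Splicing factors and RNA helicases had 0 of 6 called and array medians averaging -0.29 ± 0.16, while with median centring the list median was 0.47 and 1 was called higher, AJ624622 at 1.26. They ran from the helicase DDX42 (AJ626065) at -0.85, RNA binding motif protein 17 (AJ625454) at -0.66 and small nuclear ribonucleoproteins at -0.50 (AJ516404) and -0.10 (AJ626329) to a DEAD box helicase (AJ624089) at 0.21 and a heterogeneous nuclear ribonucleoprotein (AJ624622) at 0.40. The stress list was near 0 with either normalization (list medians of -0.17 and -0.05). Isoform mt-10b of metallothionein (AJ625847), a metal-binding protein, averaged -0.42 with an adjusted p of 0.271, microsomal glutathione S-transferase (AJ625131) -0.17 and p8 (AJ624834) -0.08. Of other genes with a Q-PCR assay, MAM domain containing 2 (AJ624502) averaged 0.69 (0.36, 0.71, 0.99 and 0.70, adjusted p = 0.0676) and lethal giant larvae homolog 2 (AJ625655), a cell polarity gene, 0.31 (adjusted p = 0.342). Neither was called after loess, and AJ624502 was called higher with median centring, at 2.04.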

How the data were processed

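Mantle RNA of single mussels was hybridized on dual-color cDNA arrays, and the authors quantified spots with GenePix. They deposited, per spot, intensity values that were not normalized (mean foreground and median local background in Cy5 and Cy3), and a table of log2 ratios that the authors made with limma (version not given in the sources used here) by offset background subtraction and loess. These deposited log2 ratios run as stage 4 over stage 1 on these arrays. 0 columns belonged to samples outside the series. Of 4560 spots per array, 3840 were probes, 608 empty and 112 alignment spots, and 0 were saturated. The intensities were background-corrected with normexp (offset 50) and loess was fitted on each array, control spots (empty or alignment) having weight 0. Dye-swapped arrays were turned, 2 spots were averaged, and the 4 arrays were tested against 0 with lmFit and eBayes (R 4.3.3, limma 3.58.1; prior share 0.01). SEs are of the moderated fit. Signal over background, the measure of depth here, was judged against empty spots, and 4 arrays limit the precision. Each pair of arrays differed by more than their duplicate spots did (variance ratio of 1.39 or more).

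On simulated data with the spread of these arrays and 200 of 1920 clones changed, 0% of changes of 0.5 on the log2 scale were called, 30% of changes of 1, 86% of changes of 2 and 94% of changes of 3, with 1 of 1720 unchanged clones called. The simulated errors were independent between arrays and held no difference between dye orientations. These rates may therefore not hold for clones with such a difference.

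Clones were paired with EMBL identifiers through the study's table of changed female genes, by the agreement of its values with the deposited log2 ratios (tolerance 0.005), used for identity only. Of 368 rows 368 were paired, 354 with an identifier and 208 with a description, and 0 of 7360 decoy rows found a clone. The gene lists hold only paired clones, so listed genes outside that table are absent. The cytosolic ribosomal proteins had 43 clones for 83 listed identifiers, and the muscle and cytoskeleton list 8 for 26. The members and lists were chosen with earlier results of these data known. Genes were named by a rule: the 8 largest described rises and falls called, all clones of lists of up to 6 and the 2 highest and 2 lowest of longer ones, any called clone of those, genes the study measured by Q-PCR or named for female mantle, and the 2 largest undescribed changes each way, with and without an identifier. The other called clones and AJ624499 were added after their values were seen. Alternatives changed the background correction, normalization, filter, dye term, prior, threshold and arrays included. The sequences of the cDNA probes are not used here.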

Additional observations from a re-analysis of the deposited data

Results flagged for a closer look

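Of 132 sets of 4 array values (named clones and list medians), 6 had an array far from the other 3 by Dixon's criterion for 4 values at the 95% level, which chance gives about 1 time in 20. Ribosomal protein L15 (AJ624925), called lower, read -0.77 on replicate 1 and -1.57 to -1.49 on the other arrays. The undescribed rise AJ624336 read 0.97 on replicate 3 and 0.72 to 0.74 elsewhere. Among clones that were not called, the vdg3 clone AJ625981 read 1.29 on replicate 1 and 0.71 to 0.79 elsewhere, the axonemal dynein chain AJ625992 read 1.35 on replicate 4 and 0.29 to 0.45 elsewhere, and the ATP synthase beta subunit AJ625661 read -0.0023 on replicate 3 and 0.28 to 0.29 elsewhere. The median of the mitochondrially encoded clones was -0.25 on replicate 4 and 0.15 to 0.19 on the other arrays. Replicates 1, 3 and 4 each account for 2 of the 6.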

How the results depend on the processing

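With no background correction 9 clones were called higher and 22 lower, with plain subtraction 2 and 40, with print-tip loess 7 and 37, with control spots in the loess 5 and 37, with the authors' processed ratios 5 and 37, with scaling between arrays 18 and 32, with spots kept separate 32 and 53, with array weights 13 and 48, with the filter on dim clones 7 and 32, and with an intensity trend and robust prior 7 and 33. With median centring it was 86 and 19, with a dye term 4 and 51, without the limit on B, and likewise with a prior of 0.1, it was 21 and 53, and with an absolute log2 ratio of at least 1 it was 5 and 32. Leaving out 1 replicate gave 1 to 3 rises (1 without replicate 3, 2 without replicate 4, 3 without replicate 1 or replicate 2) and 24 to 29 falls, with fewer arrays by construction. Within the arrays with stage 4 in Cy5 0 and 0 were called (83 and 162 at an unadjusted p under 0.05), within those with stage 4 in Cy3 8 and 44. The 6 chitinases were called under all of these except no background correction (4), median centring (1) and stage 4 in Cy5 alone (0). Of the 42 called clones, only Myt01-019B03 changed sign, to 0.31 with median centring. Among 115 named clones, 14 uncalled ones changed sign with median centring. Clones with a dye effect numbered 6, and 10 with no background correction, 0 with plain subtraction, 100 with median centring, 14 with control spots in the loess, 14 with the authors' ratios, 0 with scaling, 11 with the dim filter, 32 with spots kept separate and 0 to 71 without 1 replicate. The causes were not tested. Leaving out spots marked by the scanner software was not run, since the files used here carry no such marks. No paired analysis was possible because each array already pairs both stages in 1 ratio, which leaves no replicate number to add as a block. Clones that differ by less than 1 on the log2 scale were mostly beyond detection at this number of arrays.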
